A study of Mus musculus with 16 samples.

Results

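The complement genes examined here were C1qa, C1qb, C1qc, C3, Cfb, Cfp, Serping1, C3ar1 and C5ar1, which are 9 of the 13085 genes in the deposited table. They were chosen by symbol, as soluble components, a soluble inhibitor and anaphylatoxin receptors of the complement system. The choice was made with earlier results of these data known. The study compared monocytes of NFAM1+/+ and NFAM1-/- mice on the C57BL/6 strain, the latter carrying a CRISPR deletion of exons 2 and 3 of Nfam1, an ITAM-bearing receptor gene. Cells of either genotype were left unstimulated or were given IFN-γ plus MegaCD40L, a multimeric form of the CD40 ligand. RNA was taken at 6 or 24 h. This gave 16 libraries in 8 groups of 2. The study's methods also name cells given IFN-γ alone, which are not among these libraries. Effects of IFN-γ and of CD40L therefore cannot be told apart here. The deletion was present in every cell of the animal rather than in monocytes alone, and the age of the mice is not given in the sources used here. The RNA came from monocytes of 4 NFAM1+/+ and 6 NFAM1-/- mice by the study's description, and which mice went into which library is not given in the sources used here. The labels give the cell type as PBL Monocyte, whereas the study's methods describe negative enrichment from bone marrow.

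For 4 of the 24 h libraries, numbered 44, 46, 56 and 58, the genotype in the title was not that of the genotype tag. Genotype was taken from the title, and so were the 24 h CPM values printed by genotype. The 24 h genotype differences of single genes are given beside their values by the tag. Comparisons of stimulus and of time average over the genotypes, 4 libraries against 4, and their fold changes are the same whichever label is right. With 16 libraries from these mice some libraries may share an animal, and nothing in the labels says that libraries of a group came from separate animals, so p-values measure only the spread between these libraries, which may be technical. The libraries at 6 h and at 24 h cannot be told apart from any batch that runs with time.

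Complement is a cascade of plasma proteins that marks particles for uptake and calls in phagocytes. The classical pathway begins with C1q, the alternative pathway is carried by C3 and factor B and stabilised by properdin, and the C1 inhibitor holds back the proteases of C1. C3a and C5a, the small fragments released on cleavage of C3 and C5, act through C3ar1 and C5ar1 on myeloid cells. Most of these proteins are made by the liver, but monocytes and macrophages make several of them locally, and macrophages are a principal source of C1q.

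Each library held 48295939 to 88514341 reads on the listed genes, so that 1 read was worth 0.00870 to 0.0197 CPM. This deposited unit sets the reads of a gene against the scaled size of its library. Among the 9 members, depth limited only the lowest values of Serping1 and Cfb. Monocyte markers (all 8 listed, including Ly6c2, Ccr2, Csf1r and Lyz2) summed to 22240 to 24389 CPM per library without stimulus at 6 h and to 8038 to 9955 with it. At 24 h they summed to 26079 to 30095 CPM without and 8199 to 11440 CPM with the stimulus. Lyz2 made up most of these sums without stimulus, at means of 16598 CPM without and 3518 CPM with the stimulus at 6 h, whereas Ly6c2 (424 and 2401 CPM) and Fcgr1 (31.8 and 702 CPM) were the 2 of the 8 with higher means with the stimulus. Genes of the response to IFN-γ (6 of 6 listed) summed to 92.0 to 121 CPM without and 39836 to 46556 CPM with the stimulus at 6 h, and to 199 to 223 and 14404 to 15692 CPM at 24 h. Reads of Nfam1 were summed over all of its exons, which makes its level only a partial check of the deletion. At 6 h it stood at 432 and 408 CPM in NFAM1+/+ and 299 and 321 CPM in NFAM1-/- libraries without stimulus, and at 127 to 135 CPM in all 4 libraries with it. At 24 h, by title, it stood at 463 and 495 CPM in NFAM1+/+ and 441 and 391 CPM in NFAM1-/- libraries without stimulus and at 271 and 252 against 201 and 223 CPM with it, whereas by the tag the genotypes overlapped in both conditions. In these bulk libraries fewer cells of a type and less RNA per cell cannot be told apart.

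The deposited CPM carry the authors' scaling of library sizes, and the ratio of listed reads to scaled size differed by stimulus, from 0.756 to 0.775 without and from 1.24 to 1.32 with the stimulus at 6 h. Scaling each library to its own total of reads moved the median log2 fold change of all genes from -0.13 to -0.86 for the stimulus at 6 h and from 0.01 to -0.33 at 24 h. The share of calls that were higher then went from 48.1% to 21.9% at 6 h and from 43.9% to 30.4% at 24 h. Member values that this scaling turns or carries across the threshold are given where they occur.

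The promoter windows of C1qb, C1qc and C3 are shown because C1qb and C1qc are adjacent genes whose levels parted with the stimulus and because C3 had the highest mean level of the group. They are the 250 bases before the RefSeq transcription start on GRCm38.p6, written 5′ to 3′ on the minus strand on which all of them lie. The window of C1qb is chr4:136886201-136886450, that of C1qc is chr4:136892915-136893164 and that of C3 is chr17:57228137-57228386, and capitals mark motif matches.
C1qb: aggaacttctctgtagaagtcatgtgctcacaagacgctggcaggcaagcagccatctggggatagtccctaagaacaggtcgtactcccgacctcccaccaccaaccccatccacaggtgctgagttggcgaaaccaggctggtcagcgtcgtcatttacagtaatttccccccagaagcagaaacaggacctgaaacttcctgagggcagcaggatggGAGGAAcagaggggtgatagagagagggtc
C1qc: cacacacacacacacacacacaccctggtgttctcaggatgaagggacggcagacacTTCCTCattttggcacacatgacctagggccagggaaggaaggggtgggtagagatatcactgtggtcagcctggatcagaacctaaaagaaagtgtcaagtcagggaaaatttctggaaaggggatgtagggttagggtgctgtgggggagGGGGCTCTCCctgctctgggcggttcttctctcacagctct
C3: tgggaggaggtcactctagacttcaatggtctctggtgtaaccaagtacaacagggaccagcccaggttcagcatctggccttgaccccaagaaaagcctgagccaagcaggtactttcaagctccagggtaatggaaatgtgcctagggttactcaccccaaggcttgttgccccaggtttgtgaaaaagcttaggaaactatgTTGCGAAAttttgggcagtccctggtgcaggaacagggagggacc
Searched on both strands were the interferon-γ activated site TTCNNNGAA, the core of the interferon-stimulated response element GAAANNGAA, a C/EBP motif TTGCNNAA, the PU.1 core GAGGAA and the NF-kB consensus. The capitals in C1qb are a PU.1 core at -30 to -25 from the start. In C1qc they are a PU.1 core on the opposite strand at -193 to -188 and an NF-kB consensus at -41 to -32. In C3 they are a C/EBP match at -45 to -38. Among 32536 RefSeq windows of the same length, 23.4% held the PU.1 core, 7.28% the NF-kB consensus, 9.57% the C/EBP motif, 7.04% the interferon-γ activated site and 7.15% the response element core, and no match overlapped another. Of the 9 genes, 6 had a window and C1qa, Cfb and Serping1 did not. The window of C5ar1 held a response element core at -66 to -58, and those of C3ar1 and Cfp held none of the motifs. The RefSeq start of C1qb was not found in a GENCODE vM21 transcript. A match describes letters and not a bound site.

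With IFN-γ plus CD40L for 6 h, 6 of the 9 genes rose and 0 fell by the limma test, in which a call needed a 2-fold change and a Benjamini-Hochberg adjusted p under 0.05. Of 12782 genes tested, 19.1% were called higher and 20.6% lower in the same comparison. Serping1, Cfb and C1qb rose most, followed by C1qc, C3 and C1qa. Over the 9 genes the median of the log2 fold changes was 1.98, against -0.13 over all genes tested. Since the genes were chosen with earlier results known, shares and medians set against all genes are descriptions only. An unadjusted p under 0.05 was found for 8 of the 9 and for 10147 of the 12782 genes tested. At 24 h 3 genes rose (Serping1, Cfb and C3) and 2 fell (C3ar1 and Cfp), where 14.6% of all genes were called higher and 18.7% lower. The members' median was then 0.22, against 0.01 over all genes. Between 6 and 24 h without stimulus C1qa, C1qb and C1qc rose and C3 fell, against 13.2% of all genes called higher and 7.76% called lower.

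**Figure D1:**
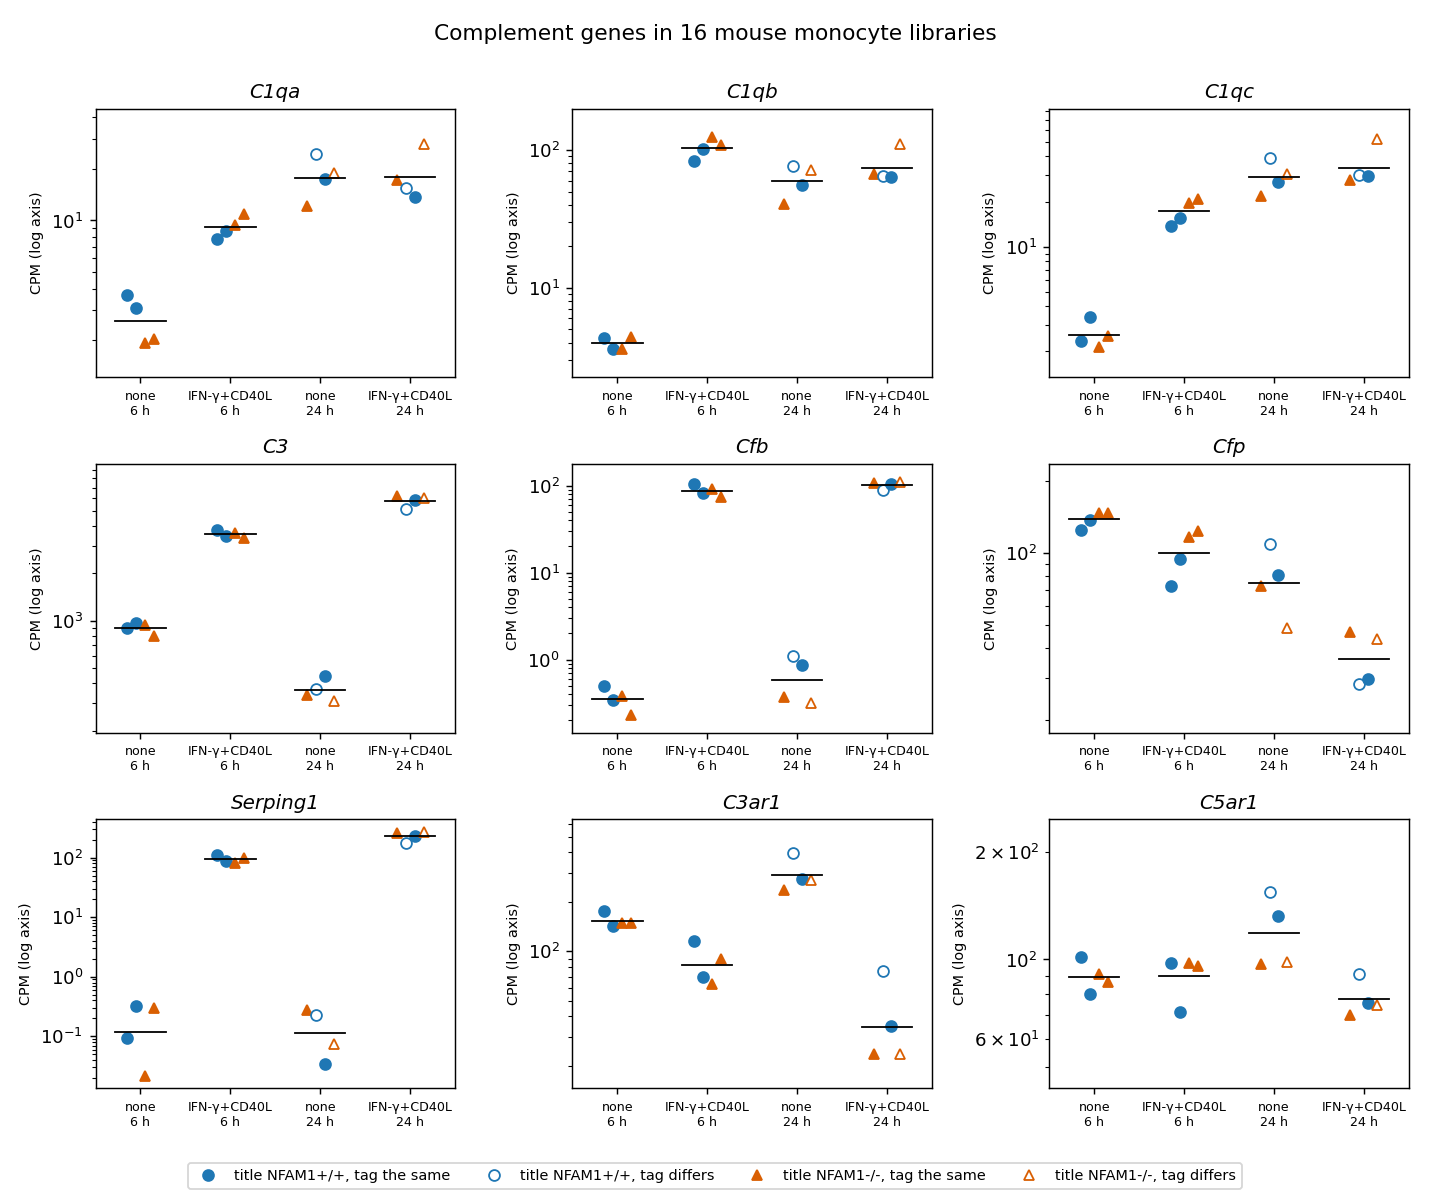
CPM of the 9 complement genes on log axes in the 16 libraries, by stimulus and time, with 1 point per library. Circles are NFAM1+/+ and triangles NFAM1-/- by title, open symbols mark the 4 libraries whose genotype tag differs from the title, and black lines are means of log2 CPM. Serping1 and Cfb sat near or below 1 CPM in every unstimulated library and above 74 CPM in every stimulated library.

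C1qa, C1qb and C1qc encode the A, B and C chains that assemble in equal numbers into C1q, the recognition molecule of the classical pathway, and they lie next to each other on chromosome 4. In unstimulated cells all 3 genes were low at 6 h and higher at 24 h. C1qb measured 4.31 and 3.57 CPM in NFAM1+/+ and 3.58 and 4.39 CPM in NFAM1-/- libraries at 6 h without stimulus. At 24 h it measured 76.4 and 56.0 CPM in NFAM1+/+ and 40.5 and 72.0 CPM in NFAM1-/- libraries. The lowest library at 24 h was thus above the highest at 6 h, and the log2 fold change was 3.91 ± 0.18 (SE, 4 libraries against 4, limma adjusted p = 5.87e-10). C1qa rose from 2.68 ± 0.84 to 18.3 ± 5.07 CPM (SD, n = 4), a log2 fold change of 2.78 ± 0.18 (SE), and C1qc rose from 2.61 ± 0.55 to 29.6 ± 7.21 CPM, a log2 fold change of 3.49 ± 0.19.

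With the stimulus the C1q genes were already raised at 6 h, and C1qb most. C1qb measured 83.2 and 102 CPM in NFAM1+/+ and 125 and 110 CPM in NFAM1-/- libraries, all above every unstimulated library at 6 h. Its log2 fold change of 4.72 ± 0.18 (SE, limma adjusted p = 1.38e-11) corresponded to 26.3-fold. C1qc reached 13.7 and 15.7 CPM in NFAM1+/+ and 19.6 and 20.9 CPM in NFAM1-/- libraries, a log2 fold change of 2.74 ± 0.19. C1qa reached 7.77 and 8.74 CPM in NFAM1+/+ and 9.41 and 11.0 CPM in NFAM1-/- libraries, a log2 fold change of 1.82 ± 0.18.

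By 24 h the stimulated and unstimulated libraries overlapped for all 3 C1q genes. With the stimulus at 24 h C1qb measured 64.3 and 63.8 CPM in NFAM1+/+ and 66.9 and 111 CPM in NFAM1-/- libraries. The log2 differences from unstimulated cells at 24 h were 0.01 ± 0.18 for C1qa, 0.32 ± 0.18 for C1qb and 0.22 ± 0.19 for C1qc (SE, limma adjusted p = 0.955, 0.127 and 0.311), and each turned slightly negative when libraries were scaled to their own totals, to -0.32, -0.01 and -0.11. Tested directly, the effect of the stimulus at 24 h minus that at 6 h was -1.81 ± 0.25, -4.39 ± 0.26 and -2.53 ± 0.27 on the log2 scale for C1qa, C1qb and C1qc (SE, limma adjusted p = 1.91e-05, 6.93e-09 and 1.77e-06). In stimulated cells between 6 and 24 h C1qa and C1qc differed by 0.97 ± 0.18 and 0.97 ± 0.19 on the log2 scale, just under the required 2-fold, and C1qb by -0.48 ± 0.18. Scaled to own totals C1qa and C1qc passed, at 1.34 each. Without library 10 they measured 1.01 and 1.02, and without library 55 1.14 and 1.20, and both were then called, as was C1qa alone without library 12 (1.02) or 57 (1.01).

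The summed level of markers of macrophage maturation, 11 of 12 analysed here, was, like the C1q genes, higher at 24 than at 6 h in unstimulated cells, and in stimulated cells it was lower at 24 h. It was 1893 to 2509 CPM at 6 h and 6128 to 7646 CPM at 24 h without stimulus, and 1483 to 2097 CPM at 6 h and 946 to 1307 CPM at 24 h with it. Apoe made up most of these sums without stimulus, at means of 1568 and 5049 CPM at 6 and 24 h. Axl made up most of them with the stimulus, at 1145 and 840 CPM. At 6 h Axl, Maf, Mertk and Timd4 had higher means with the stimulus than without, and the other genes lower means. Timd4 alone was lower at 24 than at 6 h without stimulus (0.0684 and 0.365 CPM). Mertk, a receptor for uptake of apoptotic cells, went from 0.698 CPM at 6 h to 42.1 CPM at 24 h without stimulus and stood at 10.6 and 47.3 CPM with it, whereas Mrc1 and Cd163 were at 0.0610 and 0.0348 CPM in stimulated cells at 24 h. Neutrophil markers, 8 of 8 listed, summed to 316 to 391 CPM without stimulus at 6 h and 871 to 1217 CPM at 24 h, and to 295 to 490 and 324 to 376 CPM with it. The part of these lists in the C1q values was not tested.

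The balance between the C1q chain genes was examined after their values were seen, by taking ratios of CPM within each library. These ratios do not depend on how libraries were scaled. They were not divided by exon length, which was 1040, 1088 and 1931 bases for C1qa, C1qb and C1qc. They therefore describe changes between conditions and not the relative amounts of the chains. C1qb to C1qa was 1.16 to 2.16 across the 4 unstimulated libraries at 6 h and 9.99 to 13.2 across the 4 stimulated libraries. At 24 h it was 3.12 to 3.78 without and 3.89 to 4.65 with the stimulus. C1qb to C1qc ran in the same order, with geometric means of 1.53 and 6.02 at 6 h and of 2.05 and 2.20 at 24 h. The stimulus at 6 h thus raised C1qb over C1qa by 2.89 ± 0.25 and over C1qc by 1.97 ± 0.20 on the log2 scale (SE), with no overlap between libraries. Over 12 such comparisons, 9 reached the smallest p that an exact two-sided permutation test of 4 libraries against 4 can give, 0.0286, or 0.0381 after Benjamini-Hochberg adjustment. C1qb to C1qc with the stimulus at 24 h was among the other 3 (exact permutation p = 0.286). C1qc to C1qa between times with the stimulus was another, at a log2 difference of 0.00 ± 0.10.

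**Figure D2:**
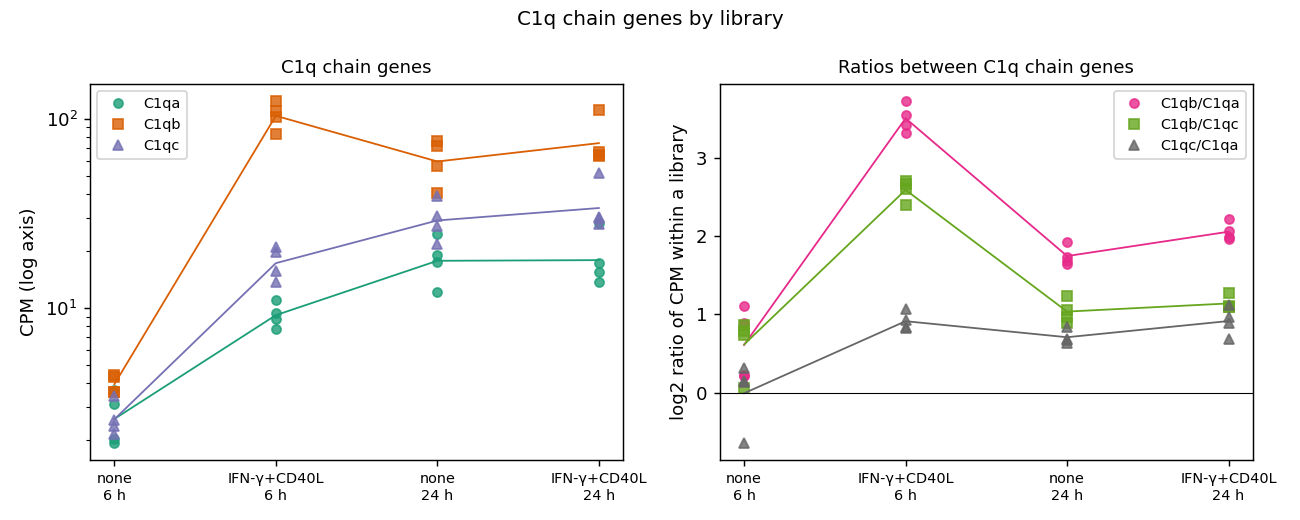
Left, CPM of C1qa, C1qb and C1qc on a log axis in each library, and right, log2 ratios between them within each library, by stimulus and time. Points are libraries (4 per condition) and lines join means of log2 values. Values were not divided by exon length. The ratios of C1qb to C1qa and to C1qc peaked in stimulated libraries at 6 h, at geometric means of 11.3 and 6.02.

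C3, the protein on which all pathways of complement converge, had the highest mean level per length of the group in every condition, although at 24 h without stimulus its libraries overlapped those of C3ar1. Unstimulated libraries at 6 h measured 899 and 968 CPM in NFAM1+/+ and 938 and 805 CPM in NFAM1-/-. With the stimulus they measured 3784 and 3460 CPM in NFAM1+/+ and 3596 and 3357 CPM in NFAM1-/-. At 24 h C3 stood at 368 and 446 CPM in NFAM1+/+ and 337 and 312 CPM in NFAM1-/- without stimulus, and at 5112 and 5808 CPM in NFAM1+/+ and 6164 and 6050 CPM in NFAM1-/- with it. No libraries overlapped between any of these 4 conditions. C3 rose with the stimulus by 1.98 ± 0.08 on the log2 scale at 6 h and by 3.99 ± 0.08 at 24 h (SE, limma adjusted p = 1.48e-11 and 1.97e-14). The difference between these effects was 2.01 ± 0.11 (adjusted p = 3.20e-09). Between 6 and 24 h C3 fell by 1.31 ± 0.08 without stimulus and differed by 0.70 ± 0.08 with it, under the 2-fold threshold. On own totals the latter was 1.08 and called. Quantile normalization, which pulls the highest values of each library together, reduced the stimulus effect at 6 h to 0.88, and C3 was then not called at that time. C3 at 24 h with the stimulus moved past the threshold over 6 h under the same normalization, at 1.22.

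Cfb encodes factor B, the zymogen of the alternative pathway convertase, and it was nearly silent without stimulus. It measured 0.50 and 0.345 CPM in NFAM1+/+ and 0.379 and 0.232 CPM in NFAM1-/- libraries at 6 h, from 21 to 56 reads. Stimulated libraries at 6 h held 104, 81.4, 92.0 and 74.8 CPM, and at 24 h 89.0, 106, 108 and 110 CPM. The ratio of means, with the offset added by the authors' transformation removed, was 245-fold at 6 h and 157-fold at 24 h, and the log2 fold changes were 7.96 ± 0.18 and 7.47 ± 0.18 (SE, limma adjusted p = 3.22e-14 and 1.15e-13). The stimulus effects at 6 and 24 h differed by -0.49 ± 0.25 on the log2 scale (adjusted p = 0.0962). Cfb lies beside C2, and reads where the genes meet could be assigned to either.

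Serping1 encodes the C1 inhibitor, which blocks C1r and C1s and several proteases of the contact system. Without stimulus it had 2 to 34 reads per library at 6 h, that is 0.0930 and 0.329 CPM in NFAM1+/+ and 0.0218 and 0.302 CPM in NFAM1-/-, and 2 to 23 reads at 24 h. With the stimulus it held 110, 89.6, 82.0 and 100.4 CPM at 6 h and 176, 234, 264 and 275 CPM at 24 h. These were the largest folds of the group, with ratios of means of 527-fold at 6 h and 1630-fold at 24 h. The log2 fold changes of 9.64 ± 0.74 and 11.03 ± 0.74 had wide errors, with few reads behind the unstimulated values, and they depend on the offset (SE, limma adjusted p = 2.65e-08 and 7.41e-09). Stimulated libraries at 24 h all lay above those at 6 h, but the log2 difference of 1.30 ± 0.74 did not pass the test in the shared model (adjusted p = 0.125). It was called with voom weights (1.30 ± 0.10, limma adjusted p = 1.32e-08), in a fit of only the groups compared (1.30 ± 0.11, adjusted p = 1.70e-06) and without library 3 or 4 (adjusted p = 0.0457 and 0.0460). The SE of the shared model also takes in the spread of the unstimulated libraries. Their SD of log2 CPM was 1.83 at 6 h and 1.40 at 24 h, against 0.18 and 0.29 in the stimulated libraries. Apoa1, the only one of 4 hepatocyte markers analysed here, was at 0.843 to 3.86 CPM in unstimulated libraries at 6 h, at 0.0346 CPM or less in those at 24 h and at 0.0728 CPM or less in every stimulated library.

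Cfp encodes properdin, which stabilises the alternative pathway convertase and is stored by myeloid cells. It went from 125 to 147 CPM without stimulus at 6 h down to 28.2 to 46.6 CPM with the stimulus at 24 h. At 24 h it fell with the stimulus by 1.05 ± 0.12 on the log2 scale (SE, limma adjusted p = 2.61e-06), from 48.3 to 108 CPM without stimulus, and the libraries did not overlap. This call was near the 2-fold limit and was lost without library 43 (-0.90) or library 44 (-0.94). At 6 h the difference was -0.47 ± 0.12, under the threshold, but -1.20 and called when libraries were scaled to their own totals. Between 6 and 24 h it fell by 1.47 ± 0.12 in stimulated cells (adjusted p = 7.21e-08) and differed by -0.89 ± 0.12 in unstimulated cells, where it was called without library 43 (-1.04) and, just past the limit, without library 44.

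The receptors C3ar1 and C5ar1 bind C3a and C5a. C3ar1 without stimulus measured 175 and 143 CPM in NFAM1+/+ and 149.6 and 149.5 CPM in NFAM1-/- libraries at 6 h. With the stimulus it measured 115 and 69.9 CPM in NFAM1+/+ and 62.8 and 90.1 CPM in NFAM1-/- libraries. Every stimulated library was lower, and the log2 difference of -0.90 ± 0.22 (SE) fell short of the 2-fold threshold. It was called under scaling to own totals (-1.63), under quantile normalization (-1.32) and without library 26 (-1.08) or 12 (-1.03). At 24 h C3ar1 stood at 398 and 275 CPM in NFAM1+/+ and 235 and 272 CPM in NFAM1-/- libraries without stimulus, against 75.6 and 34.8 CPM in NFAM1+/+ and 23.5 CPM in both NFAM1-/- libraries with it. It fell with the stimulus by 3.06 ± 0.22 on the log2 scale, 8.33-fold (SE, limma adjusted p = 1.33e-08), and the effect was greater than at 6 h by a log2 difference of -2.16 ± 0.31 (adjusted p = 2.81e-05). Between 6 and 24 h with the stimulus it fell by 1.24 ± 0.22 (adjusted p = 0.000129), although the libraries overlapped, and this call was lost under scaling to own totals (-0.87) and without library 57 (-0.96). Without stimulus it differed over the same time by 0.91 ± 0.22, under the threshold, and was called with quantile normalization (1.03) and without library 45 (1.05).

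C5ar1 stayed within 69.9 to 154 CPM in all 16 libraries and was called in no comparison of stimulus or time. Its log2 difference with the stimulus was 0.01 ± 0.10 at 6 h and -0.61 ± 0.10 at 24 h (SE, limma adjusted p = 0.950 and 7.14e-05), the latter with no overlap between libraries but under 2-fold. The value at 6 h depended on scaling, at -0.35 with quantile normalization and -0.72 with libraries scaled to their own totals. Over time with the stimulus it differed by -0.22 and turned to 0.16 on own totals. A difference in the stimulus effect between C3ar1 and C5ar1 was not tested.

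**Figure D3:**
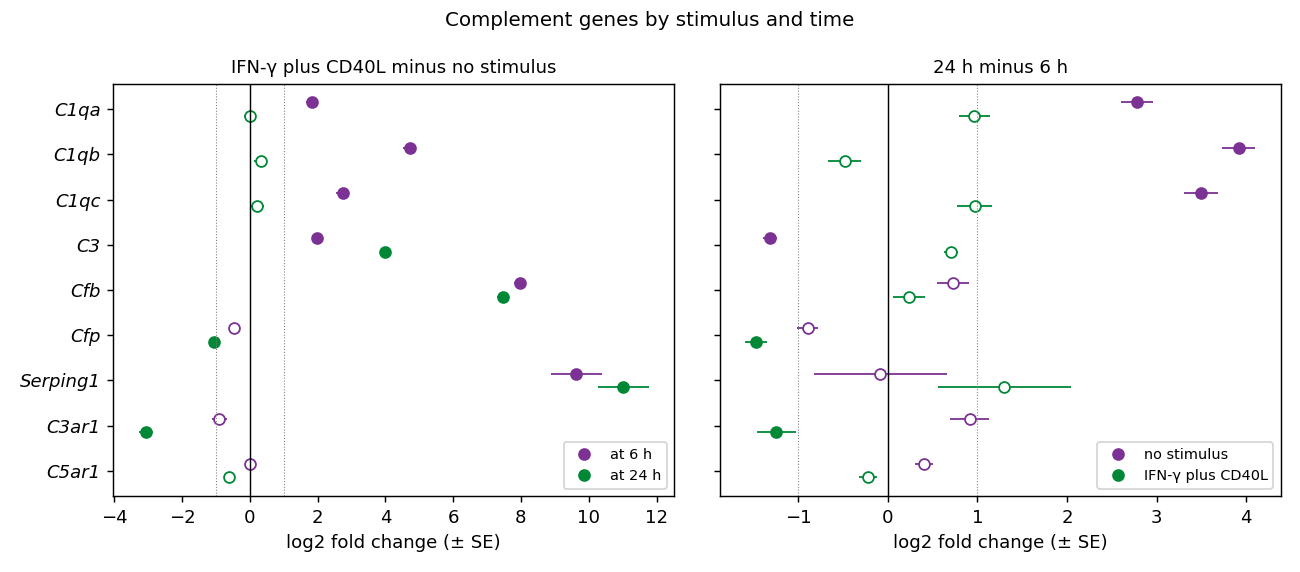
Log2 fold changes of the 9 genes with their SE, for IFN-γ plus CD40L against no stimulus at 6 and 24 h (left) and for 24 against 6 h in unstimulated and stimulated cells (right). Filled points passed the 2-fold and adjusted p thresholds, open points did not, and dotted lines mark 2-fold. C1qa, C1qb and C1qc were raised at 6 h and near 0 at 24 h on the left, while C3ar1 reached -3.06 at 24 h.

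In stimulated cells between 6 and 24 h, 0 of the 9 genes were called higher and 2 were called lower, Cfp and C3ar1, against 16.5% of all genes called higher and 17.2% called lower by limma. Serping1, C1qa, C1qc and C3 were called higher there under some of the alternatives given above. Of the 9, 7 had an unadjusted p under 0.05, as did 9923 of the 12782 genes tested. The stimulus effect differed between times in 5 of the 9, the rise of C3 and the fall of C3ar1 being larger at 24 h and the rises of C1qa, C1qb and C1qc smaller, where the log2 difference between effects was called above 0 for 13.3% and below 0 for 18.2% of all genes. On own totals the share of calls that were higher went from 49.0% to 69.3% over time with the stimulus and from 42.1% to 67.4% for the difference between times.

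Apart from the C1q ratios and the marker sums, levels of different genes were set side by side only after division by exon length. The unit was CPM per kilobase. At 6 h without stimulus the order was C3 (175), Cfp (79.9), C3ar1 (35.8), C5ar1 (34.9), C1qb (3.64), C1qa (2.58), C1qc (1.35), Cfb (0.129) and Serping1 (0.0801 CPM per kilobase). In that order C3ar1 and C5ar1, C1qb and C1qa, and Cfb and Serping1 were neighbours whose libraries overlapped. At 24 h with the stimulus it was C3 (1125), Serping1 (102), C1qb (70.4), Cfb (36.6), C5ar1 (30.3), Cfp (21.3), C1qc (18.1), C1qa (17.9) and C3ar1 (9.14 CPM per kilobase). Here Serping1 and C1qb overlapped, as did Cfb and C5ar1, and the libraries of Cfp, C1qc, C1qa and C3ar1 each overlapped those of the next. At 6 h with the stimulus C1qb ranked just below C3, at 96.3 against 690.2 CPM per kilobase, and the libraries of Cfp, Serping1, C5ar1, Cfb and C3ar1 each overlapped those of the next. At 24 h without stimulus the first 5 places, C3, C3ar1, C1qb, C5ar1 and Cfp from 71.1 to 44.7 CPM per kilobase, overlapped from each gene to the next.

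Between genotypes 1 of the 9 genes was called, in 1 comparison, and that call rested on which label was used. At 6 h 0 of the 9 were called between NFAM1-/- and NFAM1+/+ cells, either without stimulus, where 0.0861% of all genes were called, or with it, where 0% of all genes were called by limma. Among all genes 1862 had an unadjusted p under 0.05 in the latter comparison, and quantile normalization called 5. Without library 10 limma called 126 genes in that comparison, and 11 or fewer without any other library. Differences of the members ran from -1.11 ± 1.05 for Serping1 to 0.17 ± 0.17 for Cfp without stimulus, and from -0.25 ± 0.31 for C3ar1 to 0.53 ± 0.17 for Cfp with it (log2, SE, 2 libraries against 2). In each of these 2 comparisons 1 member had an unadjusted p under 0.05, C1qa without stimulus (-0.76 ± 0.25, adjusted p = 0.287) and Cfp with it (adjusted p = 0.217). Over all 12782 genes 1289 had an unadjusted p under 0.05 without stimulus, and 1090 for the response difference given next. The difference between genotypes in the response to the stimulus at 6 h was called for 0 of the 9 and for 0% of all genes (55 genes without library 10), with C1qa at 1.07 ± 0.35 (adjusted p = 0.432) the only member with an unadjusted p under 0.05.

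At 24 h 1 member was called by title, against 0.289% of all genes without stimulus and 0.579% with it. Cfb without stimulus measured 1.09 and 0.878 CPM in the libraries titled NFAM1+/+ and 0.376 and 0.317 CPM in those titled NFAM1-/-, from 27 to 89 reads, a log2 difference of -1.50 ± 0.25 (SE, limma adjusted p = 0.0121). By the genotype tag the difference was 0.28 ± 0.49 and was not called. Without the 4 libraries in conflict, which left a single library of each genotype, it was -1.22. The call was also lost with voom weights (adjusted p = 0.437). With the stimulus C3ar1 differed by -1.13 ± 0.31 by title (adjusted p = 0.0760), with 75.6 and 34.8 CPM in NFAM1+/+ and 23.5 CPM in both NFAM1-/- libraries, and by 0.56 ± 0.43 by the tag. Cfp, at 0.64 ± 0.17 by title (adjusted p = 0.0718), was at 0.02 ± 0.28 by the tag. For 5 members without and 8 with the stimulus the sign at 24 h turned between title and tag.

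**Figure D4:**
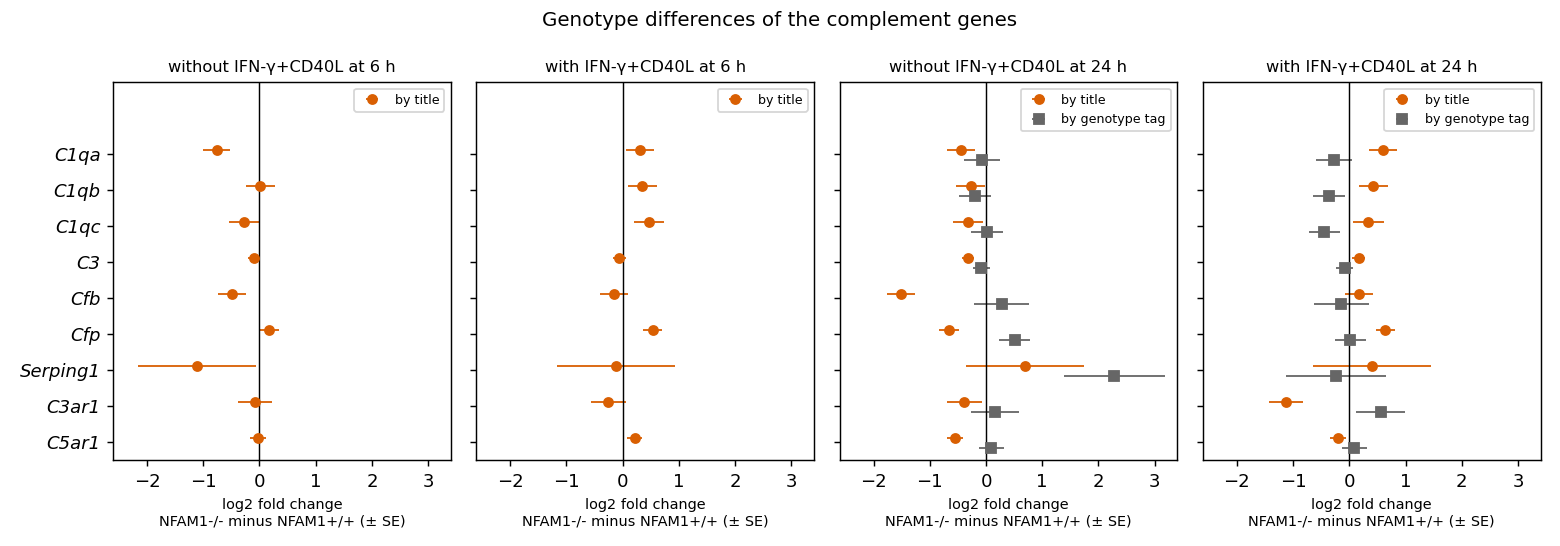
Log2 fold changes of the 9 genes between NFAM1-/- and NFAM1+/+ libraries with their SE, by title in each of the 4 conditions and by genotype tag at 24 h, 2 libraries against 2. At 24 h the values by title and by tag often lie on opposite sides of 0, as for Cfb without stimulus (-1.50 and 0.28).

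Of 49 other complement symbols in 5 lists, 20 were tested and 29 were not analysed here. At 6 h 5 of the 20 rose with the stimulus and 7 fell, and at 24 h 6 rose and 9 fell, where 19.1% of all genes were called higher and 20.6% lower at 6 h and 14.6% and 18.7% at 24 h. The medians of the 20 were -0.27 and -0.55 on the log2 scale, against -0.13 and 0.01 over all genes. These lists too were chosen with earlier results of these data known. In the list of classical and lectin activation 5 of 8 tested genes rose and 1 fell at 6 h, and 5 rose and 3 fell at 24 h. C1s1 and C1ra, which encode the proteases C1s and C1r and which the C1 inhibitor blocks, rose by 10.15 ± 0.31 and 6.53 ± 0.16 on the log2 scale at 6 h and by 9.13 ± 0.31 and 3.73 ± 0.16 at 24 h (SE). C4b, encoding C4, rose by 8.45 ± 0.17 and 8.77 ± 0.17, from a mean of 0.631 to 214 CPM at 6 h and from 0.842 to 381 CPM at 24 h. C2, the partner of C4 in the classical convertase, rose by 4.04 ± 0.37 and 6.25 ± 0.37, and C4a by 1.41 ± 0.23 and 2.47 ± 0.23. Over the unstimulated libraries C1s1 held only 37 reads at 6 h and 40 at 24 h, and C2 only 91 and 26. Their log2 fold changes thus depend on the offset. With the offset removed the ratios of means for C1s1 were 853-fold and 510-fold. C4a and C4b are near-identical copies, and C1ra and C1s1 have close copies beside them in C1rb and C1s2, so the split of reads within these pairs is uncertain.

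Clu, encoding the terminal pathway inhibitor clusterin, fell at both times, with log2 fold changes of -3.95 ± 0.50 at 6 h and -3.71 ± 0.50 at 24 h. The lectin pathway recognition genes Fcna and Fcnb fell at 24 h (-1.43 ± 0.45 and -1.87 ± 0.25), and Colec12, a scavenger receptor collectin, fell at 6 and 24 h (-4.80 ± 0.33 and -6.97 ± 0.33). Over the stimulated libraries Colec12 held only 62 reads at 6 h and 40 at 24 h, Clu 64 and 60, and Fcna 49 at 24 h.

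Among the 8 receptors and binding proteins 5 fell at each time. C5ar2, the second C5a receptor and a neighbour of C5ar1 in the genome, had log2 fold changes of -2.41 ± 0.15 at 6 h and -3.77 ± 0.15 at 24 h, and fell, from 11.8 to 2.22 and from 10.7 to 0.771 CPM. Itgam, which with Itgb2 forms complement receptor 3, fell at both times (-2.13 ± 0.08 and -1.46 ± 0.08). Its partner Itgb2 was at 0.17 ± 0.10 at 6 h and rose by 1.21 ± 0.10 at 24 h, and Itgax, which pairs with Itgb2 in complement receptor 4, fell by 1.65 ± 0.16 at 24 h. Cd93, once described as a C1q receptor, fell at both times (-3.79 ± 0.14 and -3.81 ± 0.14), and Lrp1, a scavenger receptor that takes up complexes of proteases with their inhibitors, fell at both times (-1.47 ± 0.07 and -1.58 ± 0.07). C1qbp, encoding a mitochondrial protein that can bind C1q, fell by 1.32 ± 0.08 at 6 h.

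Scaled to own totals, the medians of all genes being shifted as given above, C4a (0.68) was not called at 6 h nor Itgb2 (0.88) at 24 h, and Itgb2 at 6 h turned to -0.56. With quantile normalization Itgb2 was -0.96 at 6 h and 0.50 at 24 h. The other calls at either time kept their direction and stayed past the threshold under scaling to own totals, and Itgax, Calr and C8g at 6 h and Cd46 at 24 h were then called lower.

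Time in culture without stimulus moved 5 of the 20, 3 up and 2 down, against 13.2% of all genes called higher and 7.76% called lower. Between 6 and 24 h C1ra (1.90 ± 0.16), Cd93 (1.16 ± 0.14) and Lrp1 (1.27 ± 0.07) rose and C2 (-1.40 ± 0.37) and Fcna (-2.16 ± 0.45) fell on the log2 scale. With the stimulus Itgb2, Cd93, C1qbp, Lrp1 and Calr, the gene of the chaperone calreticulin, rose by 1.13 ± 0.05 to 1.47 ± 0.08, and Fcna, Fcnb, Colec12 and C5ar2 fell, against 16.5% of all genes called higher and 17.2% called lower. Centred on medians, which moved the split of calls over time with the stimulus from 49.0% to 37.8% higher, Itgb2, Cd93, Lrp1 and Calr lay at 0.96 to 0.99 and were not called, and Colec12 was not called on own totals (-0.86) or with quantile normalization (-0.97). Between genotypes by title limma called 0 of the 20 in any condition. Of the 20, 6 and 3 had an unadjusted p under 0.05 without and with the stimulus at 6 h, and 2 and 7 at 24 h. Over all 12782 genes tested 1289 and 1862 had such a p at 6 h, and 1397 and 1988 at 24 h.

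**Figure D5:**
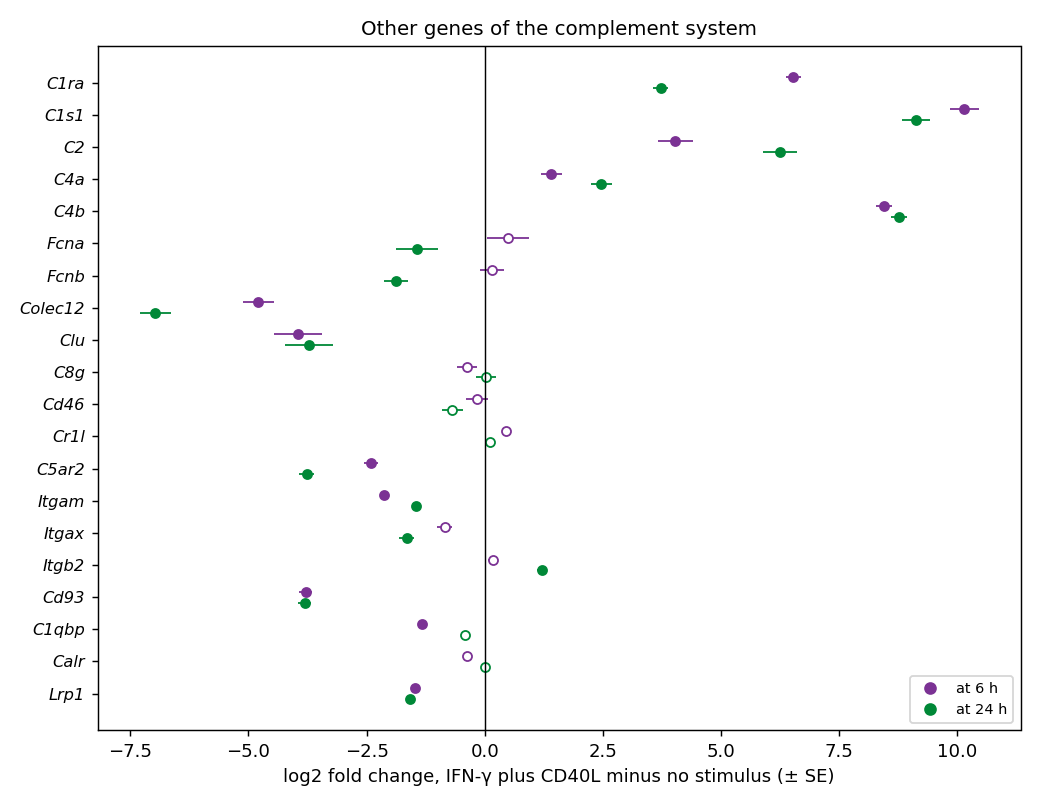
Log2 fold changes of 20 other complement genes with their SE, for IFN-γ plus CD40L against no stimulus at 6 and 24 h. Filled points passed the 2-fold and adjusted p thresholds. C1ra, C1s1, C2, C4a and C4b lie to the right at both times, and Clu lies to the left at both (-3.95 and -3.71).

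The genes whose log2 CPM ran most like each member over the 16 libraries were found by Pearson correlation, as a description in which the points share stimulus and time. For the mean of the C1q genes they were Tcirg1 (r = 0.977), Slc12a7 (0.975) and Myof (0.967). For C3 they were H2-Q4 (0.993), Gpr132 (0.992) and Rab8a (0.992), and for Cfb Ralgds (0.997), B2m (0.996) and Cd274 (0.995). Serping1 ran most like Rfx5 (0.984), Gsdmd (0.983) and AA467197 (0.983). Cfp ran most like Ptma (0.954), Pif1 (0.940) and Mutyh (0.940), and C3ar1 like Micu3 (0.964), Tal1 (0.961) and Id3 (0.956). C5ar1 had no close match, the nearest being Map1lc3a (0.819), Mitf (0.816) and Lrrc25 (0.812).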

How the data were processed

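RNA was prepared with a non-stranded polyA kit and sequenced as paired reads. Per the study's methods and the submitters' processing notes, the authors checked reads with FastQC, used STAR for alignment and Rsubread for counting, and normalized with edgeR, with build GRCm39 (mm39); annotation and versions are not given in the sources used here. The deposited values are log2 CPM, that is log2 of the reads plus 0.5 relative to a scaled library size. Whole reads were recovered from 100% of values within 0.01 reads, which gave 48295939 to 88514341 reads per library.

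The log2 values were fitted with limma 3.58.1 in R 4.3.3 (lmFit, eBayes with trend) in 1 model of 8 groups and 16 libraries. Genes entered if 2 or more libraries had 1 CPM or more (12782 of 13085). A call needed a 2-fold change and a Benjamini-Hochberg adjusted p under 0.05 over all genes tested, the study's thresholds. Count models were not run. The recovered reads were used in the fits with voom weights and with own totals. The steps were tested on simulated data.

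Genotype came from titles, with tags as an alternative. The members and lists were chosen with earlier results of these data known. All 9 members, each called gene of the other complement lists and the 3 genes most like each member were named, except 1 gene of these lists that is not reported here; the C1q ratios were added after the values were seen. Exon lengths are the union of the exons of all transcripts of a gene in GENCODE vM21. Promoters are from RefSeq, and both are on GRCm38. Alternatives were the filter, the scaling, the variance model, voom weights, the genotype label, the minimum fold, the groups fitted and leaving out each library. The label conflicts, mice per library and IFN-γ dose, which differs between labels and methods, could not be settled.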

Additional observations from a re-analysis of the deposited data

Results flagged for a closer look

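Within the 36 sets of 4 libraries of a condition, 3 values lay far from the other 3 libraries, where chance alone marks about 1 set in 20. C1qb measured 111.16 CPM and C1qc 51.9 CPM in library 58 (stimulated, 24 h), above 63.8 to 66.9 and 27.7 to 30.2 CPM in the others. This library is titled NFAM1-/- and tagged wild type, and its C1qa was also the highest of its condition, at 28.1 CPM. C5ar1 measured 71.5 CPM in library 10 (stimulated, 6 h), below 95.8 to 97.7 CPM in the others.

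The effect of the stimulus differed between 24 and 6 h by a direct limma test in 7 of the 9 genes at an adjusted p under 0.05, without a minimum size. By the same rule it differed in 8588 of the 12782 genes tested. The log2 differences were -1.81 for C1qa, -4.39 for C1qb, -2.53 for C1qc, 2.01 for C3, -0.58 for Cfp, -2.16 for C3ar1 and -0.62 for C5ar1. Those of Cfp and C5ar1 were under 2-fold, and with libraries scaled to their own totals they were -0.18 and -0.22 with adjusted p of 0.386 and 0.141.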

How the results depend on the processing

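Of the 23 member calls, 19 kept direction and call under every alternative setting that could be run for them (the fit of only the groups compared gave no difference between times). The others were C3 with the stimulus at 6 h (0.88 with quantile normalization), Cfp with the stimulus at 24 h (-0.90 and -0.94 without library 43 or 44), C3ar1 over time with the stimulus (-0.87 on own totals, -0.96 without library 57) and Cfb between genotypes at 24 h without stimulus. For that Cfb comparison 0 members were called without the variance trend, with voom weights, by the genotype tag and with only the groups compared. In the last of these Cfb did not pass the filter. Without the 4 libraries in conflict, which left a single library of each genotype, Cfb was at -1.22. Own totals called 4 members over time with the stimulus instead of 2, and dropping the minimum fold change called 6 there and 8 instead of 4 over time without it. Causes were not tested. No paired analysis was possible because the groups share no replicate numbers.

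Leaving out single libraries, the members called ranged from 2 to 4 over time with the stimulus (4 without library 10 or 55), and from 0 to 1 between genotypes at 24 h without (0 without 44 or 46) and with the stimulus (1, C3ar1, without 26, 10 or 57).

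Signs turned in these cases, most of them values under the threshold. With quantile normalization C5ar1 was -0.35 for the stimulus at 6 h, Serping1 0.15 over time without stimulus, and C1qb -0.00983 and C5ar1 0.000488 between genotypes without stimulus at 6 h. On own totals C5ar1 was -0.72 for the stimulus at 6 h and 0.16 over time with it, and the stimulus at 24 h gave C1qa -0.32, C1qb -0.0107 and C1qc -0.11. With voom weights Serping1 was 0.0377 over time without stimulus and C1qb -0.0201 between genotypes without stimulus at 6 h. By the tag, genotype values at 24 h without stimulus were 0.0201 (C1qc), 0.28 (Cfb), 0.51 (Cfp), 0.16 (C3ar1) and 0.0974 (C5ar1). With the stimulus they were -0.27 (C1qa), -0.36 (C1qb), -0.44 (C1qc), -0.0786 (C3), -0.14 (Cfb), -0.24 (Serping1), 0.56 (C3ar1) and 0.0898 (C5ar1). Without the 4 libraries, which left a single library of each genotype at 24 h, C1qc was -0.10 with the stimulus.

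Ranges over single libraries left out, where the sign turned, were -0.11 to 0.12 for C5ar1 with the stimulus at 6 h, and -0.16 to 0.19 for C1qa and -0.00791 to 0.44 for C1qc at 24 h. Serping1 over time without stimulus ran from -1.03 to 0.86. Between genotypes without stimulus at 6 h they were -0.13 to 0.16 (C1qb), -0.21 to 0.00816 (C3), -3.01 to 0.79 (Serping1), -0.23 to 0.0668 (C3ar1) and -0.19 to 0.15 (C5ar1). With the stimulus at 6 h they were -0.12 to 0.00595 (C3), -0.32 to 0.0276 (Cfb), -0.27 to 0.0191 (Serping1), -0.61 to 0.11 (C3ar1) and -0.0149 to 0.44 (C5ar1). At 24 h they were -0.69 to 0.14 (C1qb) and -0.66 to 2.05 (Serping1) without and -0.11 to 0.79 (C1qc) with the stimulus. The genotype difference in response ran from -0.0668 to 0.15 (C3), -0.0137 to 0.69 (Cfb), -0.91 to 2.88 (Serping1) and -0.54 to 0.18 (C3ar1).

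Counts over all genes moved by more than 1.5 times with a mean of at least 5 CPM (5069 to 3275 for the stimulus at 6 h, 4256 to 2554 at 24 h, 2684 to 1446 and 4308 to 2746 over time without and with it, 4024 to 2658 for the difference of effects, and 11 to 5 for genotype without stimulus at 6 h). Without a minimum fold change they were 10003, 9564, 8233, 9763, 8588 and 20. By the tag the genotype count without stimulus at 6 h was 5 instead of 11. Genotype counts at 24 h, 37 without and 74 with the stimulus, were 2 and 3 by the tag, 14 and 5 without the trend, and 122 and 269 without a minimum fold change. Counts without the libraries in conflict are left out, since that fit leaves a single library of each genotype at 24 h. With only the groups compared the 74 became 0. Leaving out single libraries, the genotype counts ran from 1 to 40 (without 4 and without 1) and 0 to 126 (without 10) at 6 h without and with the stimulus, 0 to 55 (without 10) for the difference in response, and 7 to 64 (without 44 and 43) and 1 to 182 (without 58 and 55) at 24 h.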
